A study of Mus musculus with 25 samples.

Results

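Low-threshold mechanoreceptors with unmyelinated C fibres (C-LTMRs) are a class of sensory neuron in the dorsal root ganglion, and 4 genes that mark them in the mouse were followed here: Th, Fam19a4 (named Tafa4 in newer annotations), Slc17a8 and Zfp521. They were taken by symbol, through their Ensembl identifiers, from a table of 16220 genes, and all 4 were present and passed the filter on low values. The table came from RNA sequencing of dorsal root ganglia of 25 BXD strains, which are inbred mouse lines descended from C57BL6/J and DBA2/J, with 1 library per strain. All mice were 8 weeks old and no strain carried a labelled treatment or engineered allele. By the ending of the strain name, 16 strains formed the TyJ group and 9 the RwwJ group. The labels used here state neither sex nor how many animals were pooled in a library. A difference between strains therefore holds genotype, animal, dissection and library together, and all p-values measure effects against that mixed spread.

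C-LTMRs end around hair follicles in hairy skin, and respond to slow, gentle stroking. Th encodes tyrosine hydroxylase, the rate-limiting enzyme of catecholamine synthesis. Fam19a4 encodes a secreted TAFA protein that lowers the excitability of pain pathways. Slc17a8 encodes VGLUT3, which loads glutamate into synaptic vesicles, and Zfp521 encodes a zinc finger protein that binds the EBF transcription factors. Each of these genes is also used by some other neurons, Th by sympathetic neurons among them. In whole ganglia a lower value can mean fewer C-LTMRs or less RNA of that gene in each, and these cannot be told apart here.

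Values are scaled counts, which are read counts that the authors brought to a common upper quartile and rounded. Their totals ran from 24637919 to 26860283 per library. The steps between low values put the depth of 24 libraries at about 20000000 to 40200000 reads (median 23000000). The defining markers of sensory ganglia were present in every library, with Pou4f1 at 3528 to 5349 and Isl1 at 1413 to 2478 scaled counts. Some libraries stood apart. Spinal cord genes (5 of 5 measured: Mobp, Mog, Slc6a5, Slc32a1 and Olig2) summed to 27 to 1901 in TyJ and 23 to 6572 in RwwJ, with BXD48 highest, and Slc32a1 and Olig2 were at 0 in some libraries. BXD21, BXD36 and BXD40 had the highest totals. Their Th values ranked 5, 2 and 3. Calls that ended without those 3 libraries are named beside the results.

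Th and Fam19a4 had the highest correlation of the 6 pairs, so the 250 bases before their transcription starts are shown, on the minus strand, from RefSeq on GRCm38.p6. The Th window is chr7:142899996-142900245 and the Fam19a4 window is chr6:97060412-97060661. Capitals mark matches to 5 motifs searched on both strands: TGACGTCA (cyclic AMP response element), TGTGGT (RUNX motif), CACGTG (E box), TATAAA (a core promoter box) and the CCAAT box.
Th: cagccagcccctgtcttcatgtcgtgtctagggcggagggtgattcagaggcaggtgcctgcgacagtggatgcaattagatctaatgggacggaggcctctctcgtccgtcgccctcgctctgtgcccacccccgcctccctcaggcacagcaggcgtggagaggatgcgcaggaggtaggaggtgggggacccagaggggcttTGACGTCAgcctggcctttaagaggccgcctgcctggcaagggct
Fam19a4: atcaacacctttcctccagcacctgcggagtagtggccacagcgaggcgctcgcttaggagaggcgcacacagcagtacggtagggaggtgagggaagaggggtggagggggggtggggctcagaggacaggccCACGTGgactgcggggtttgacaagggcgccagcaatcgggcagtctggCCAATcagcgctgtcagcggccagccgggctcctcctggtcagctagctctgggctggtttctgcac
The Th window held 1 TGACGTCA, from 45 to 38 bases before the start, a motif found in 1.55% of 32815 windows of the same length. The Fam19a4 window held CCAAT from 67 to 63 bases before the start and CACGTG from 116 to 111, found in 33.8% and 6.02% of windows. The 2 sequences shared none of the searched motifs. GC content was 64.4% for Th and 65.2% for Fam19a4. The corresponding Slc17a8 window, chr10:89621250-89621499, had 57.2% GC and none of the 5 motifs, and the window of its second start site, chr10:89599816-89600065, had 44.8% GC and none either. TGTGGT stood in 14.04% of all windows and TATAAA in 12.4%, and neither stood in these. A match is a string of letters and says nothing here of binding.

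Th (chromosome 7, ENSMUSG00000000214) had its lowest scaled count of 2791 in BXD11, a median of 4124 and its highest of 7447 in BXD89. In the plot of scaled counts by strain, BXD89, BXD36, BXD40, BXD34 and BXD21 stood at 6291 or above and the other strains formed a continuous run from 5566 down. The highest value was 2.67 times the lowest, and the mean was 4536 ± 1297 (SD, n = 25). Fam19a4 (chromosome 6, ENSMUSG00000046500) ran from 1271 in BXD16 through a median of 2013 to 2811 in BXD36. Its range was 2.21-fold and its mean 2012 ± 421 (SD, n = 25). BXD36, BXD21 and BXD89 were the 3 highest strains for Fam19a4 and were also among the 5 highest for Th.

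Slc17a8 (chromosome 10, ENSMUSG00000019935) varied most, from 248 in BXD55 through a median of 435 to 892 in BXD5. This was a 3.597-fold range, with a mean of 499 ± 172 (SD, n = 25). BXD5, BXD6 and BXD89 were the highest strains for this vesicular glutamate transporter. Zfp521 (chromosome 18, ENSMUSG00000024420) varied least, from 762 in BXD21 through a median of 1002 to 1281 in BXD89. Its range was 1.68-fold and its mean 1033 ± 160 (SD, n = 25). BXD89, BXD5 and BXD44 were at 1260 or above for this zinc finger gene. At the other end BXD21, BXD14, BXD55 and BXD28 lay between 762 and 805, and the next strain was BXD16 at 915.

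The SD over strains of the log2 values was 0.48 for Slc17a8, 0.40 for Th, 0.31 for Fam19a4 and 0.23 for Zfp521. Among all genes tested, whose median SD was 0.246, these stood at percentiles 81.3, 73.5, 62.1 and 45.8. The ratio of highest to lowest strain had a median of 1.93 over all genes, so Th, Fam19a4 and Slc17a8 lay above it and Zfp521 below. Read counting alone accounted for an estimated 0.324% of the variance of Th, 1.17% of Fam19a4, 2.07% of Slc17a8 and 4.05% of Zfp521. The differences between strains in these genes are thus larger than counting error, although with 1 library a strain they have no replicate check.

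Levels of different genes were compared per kilobase of annotated exon. The median was 1744.5 scaled counts per kb for Th, 353.6 for Fam19a4, 142.5 for Zfp521 and 92.2 for Slc17a8. The lowest Th strain (1181 per kb) was above the highest Fam19a4 strain (494 per kb). The lowest Fam19a4 strain (223 per kb) was in turn above the highest Zfp521 strain (182 per kb). Zfp521 and Slc17a8 were neighbours that overlapped, at 108 to 182 and 52.5 to 189 per kb.

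**Figure D1:**
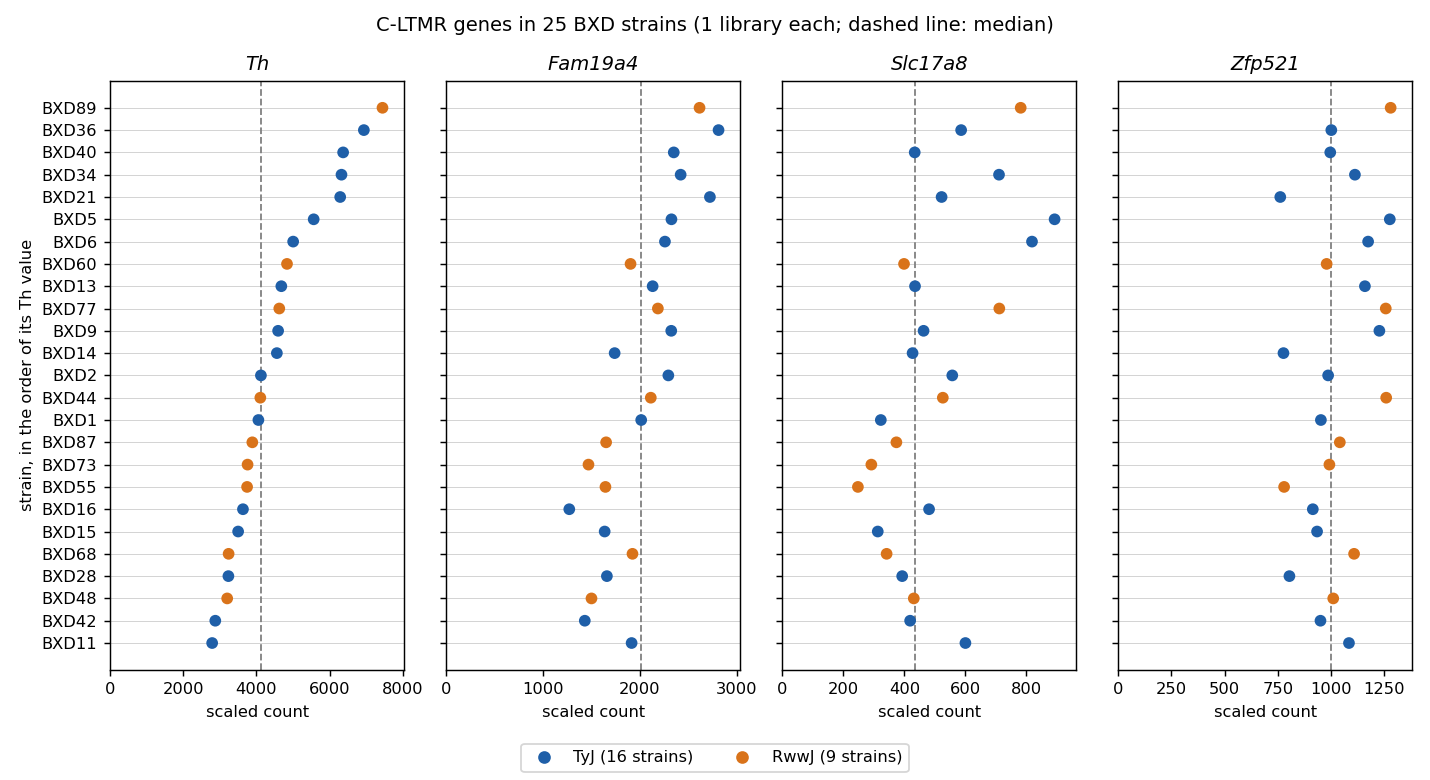
Scaled counts (x axes, starting at 0) of Th, Fam19a4, Slc17a8 and Zfp521 in 25 BXD strains (y axis, in the order of their Th value), with 1 point per library, TyJ in blue and RwwJ in orange, and a dashed line at the median. Every strain from BXD89 down to BXD6 in the Th order is above the Fam19a4 median of 2013, whereas BXD21 in that run has the lowest Zfp521 value, 762.

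Some strains were high or low for the whole set. BXD89 ranked 1 for Th and Zfp521 and 3 for Fam19a4 and Slc17a8, counted from the highest. BXD5 (Th 5566, Fam19a4 2325, Slc17a8 892, Zfp521 1277) and BXD34 (6326, 2420, 710 and 1113 in the same order) were also among the 8 highest strains for all 4 genes. BXD28, BXD15 and BXD55 were among the 8 lowest for all 4, with Th at 3235, 3501 and 3746 and Slc17a8 at 393, 313 and 248. Other strains split the set. BXD21 ranked 2 for Fam19a4 (2722) and 5 for Th (6291) but 25 for Zfp521 (762). BXD11 ranked 25 for Th (2791) and 6 for Slc17a8 (600).

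The ratios of scaled counts within a strain show the same split. Th over Fam19a4 stayed between 1.46 in BXD11 and 2.86 in BXD16, with a median of 2.22, the narrowest of the 6 ratios at 1.96-fold. Th over Slc17a8 ran from 4.65 in BXD11 to 15.1 in BXD55, a 3.25-fold range. Th over Zfp521 ran from 2.57 in BXD11 to 8.26 in BXD21, a 3.21-fold range. The ratios of Fam19a4 to Slc17a8, Fam19a4 to Zfp521 and Slc17a8 to Zfp521 spanned 2.54-fold, 2.57-fold and 2.38-fold.

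Co-variation was measured for all 6 pairs by Pearson's r over the log2 values of the 25 strains, with 100000 permutations and Benjamini-Hochberg adjustment over the 6 pairs. Th and Fam19a4, the enzyme and the secreted protein, had the highest r of the 6 pairs. Their r was 0.80 (permutation p = 1e-05, the smallest that can be given; adjusted p = 6e-05) and their rho 0.84 (adjusted p = 6e-05), and 20 of 25 strains lay on the same side of both medians. Without BXD36 and BXD89, the strains farthest from the Th median, r was 0.75. Within the groups r was 0.80 in TyJ (n = 16, permutation p = 0.00019) and 0.79 in RwwJ (n = 9, exact permutation p = 0.00953).

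Slc17a8 followed the other 3 genes at intermediate strength. With Fam19a4 its r was 0.60 (permutation p = 0.00158, adjusted p = 0.00364) and its rho 0.66 (permutation p = 0.00053), with 20 of 25 strains on the same side of both medians. Without BXD16 and BXD42 this r was 0.70. With Zfp521 its r was 0.59 (permutation p = 0.00182, adjusted p = 0.00364), its rho 0.61 (permutation p = 0.00142), and r without BXD5 and BXD6 was 0.51. With Th its r was 0.53 (permutation p = 0.00668, adjusted p = 0.01002), its rho 0.55 (permutation p = 0.00497), and r without BXD36 and BXD89 was 0.44. In the 9 RwwJ strains these were, for Fam19a4, Zfp521 and Th, 0.81, 0.87 and 0.70 (exact permutation p = 0.00811, 0.00185 and 0.0314; adjusted p = 0.0191, 0.0111 and 0.0376). In the 16 TyJ strains they were 0.47, 0.54 and 0.43 (permutation p = 0.0635, 0.0312 and 0.101; adjusted p = 0.127, 0.0937 and 0.152). The difference between the groups was not tested.

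By r, the pairs of Zfp521 with Th and Fam19a4 did not pass; by rho, the pair with Fam19a4 did. For Th the r was 0.23 (permutation p and adjusted p = 0.256), the rho 0.35 (permutation p = 0.0862), and r without BXD36 and BXD89 was 0.15. For Fam19a4 the r was 0.39 (permutation p = 0.0539, adjusted p = 0.0647), the rho 0.45 (permutation p = 0.0241, adjusted p = 0.0289), and r without BXD16 and BXD42 was 0.36. BXD21, high for both and lowest for Zfp521, weighed on these values: without it r was 0.38 for Th and 0.58 for Fam19a4, and the latter passed (adjusted p = 0.00433). It also passed without BXD36, at r = 0.43. Without BXD21, BXD36 and BXD40 together both passed, at r = 0.48 for Th (adjusted p = 0.0225) and 0.68 for Fam19a4 (adjusted p = 0.00122). Within groups, Zfp521 and Fam19a4 had r = 0.33 in TyJ and 0.74 in RwwJ (n = 9, exact permutation p = 0.0220), and Zfp521 and Th had 0.17 and 0.47.

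**Figure D2:**
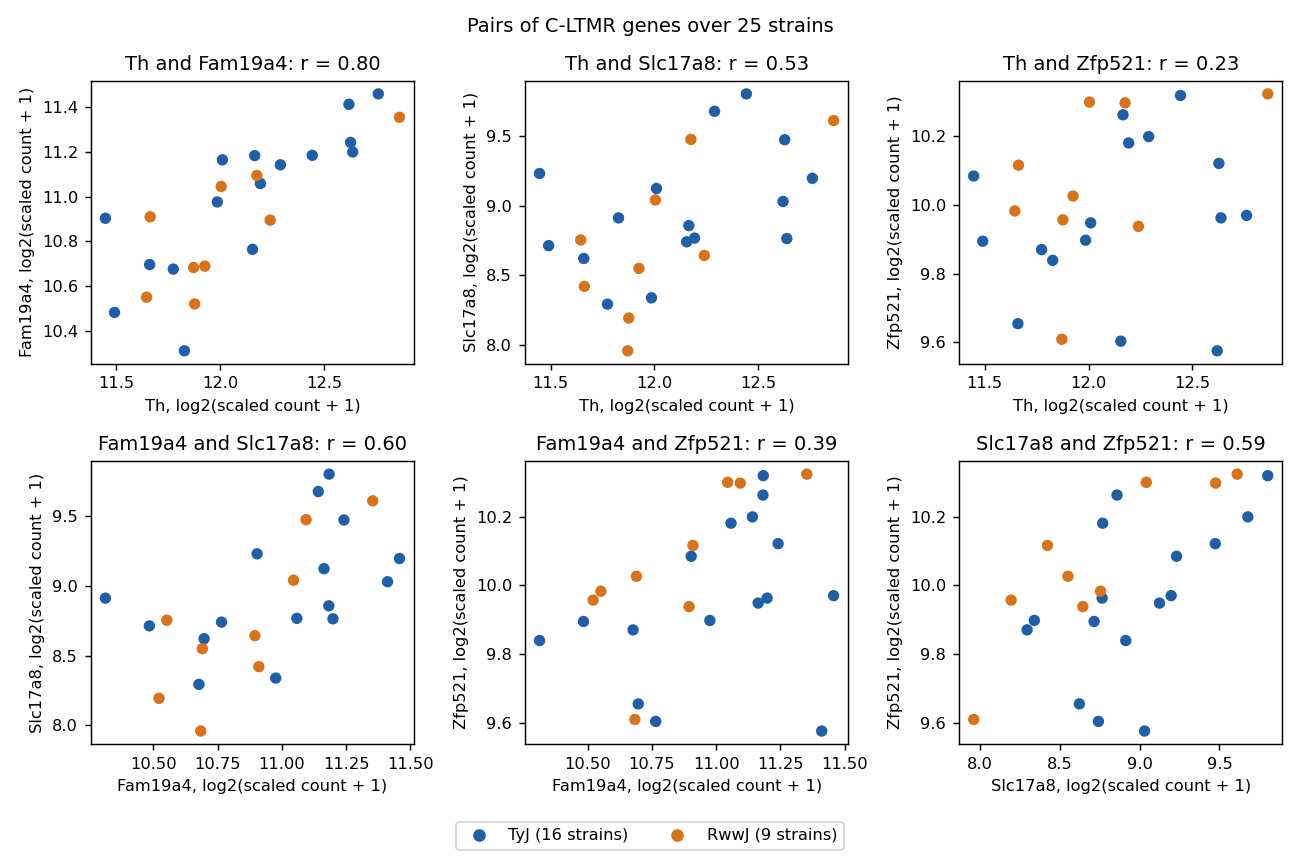
The 6 pairs of C-LTMR genes in 25 strains, on log2(scaled count + 1) axes that do not start at 0, with TyJ in blue and RwwJ in orange and Pearson's r above each panel. The Th and Fam19a4 points lie along a line (r = 0.80), while in the Th and Zfp521 panel (r = 0.23) the TyJ strain at the lower right is BXD21.

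Each gene was then used as the only covariate in a limma fit over all 16151 other genes that passed the filter, to see how common such co-variation is. With Th, 1 of the other 3 C-LTMR genes passed, Fam19a4 (limma adjusted p = 0.00580), where 0.204% of all genes did (33 of 16151; 0.13% in the same and 0.0743% in the opposite direction). By r, Fam19a4 ranked 2, Slc17a8 372 and Zfp521 4242 among all genes for Th. With Fam19a4, Th (limma adjusted p = 0.00138) and Slc17a8 (limma adjusted p = 0.0224) passed, against a background of 9.26% (1496 of 16151). There Th ranked 7 by r, Slc17a8 303 and Zfp521 2256. At an unadjusted p under 0.05, 23.1% of genes passed with Th, 29% with Fam19a4, 10% with Slc17a8 and 13.1% with Zfp521. With Slc17a8 none of the other 3 passed, and 0.00619% of all genes did (1 of 16151). Fam19a4 ranked 57 by r for Slc17a8, Zfp521 89 and Th 196. With Zfp521 none of the other 3 passed either, and 0.031% of all genes did (5 of 16151).

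These backgrounds depended on single libraries. Leaving out each library in turn moved the count for Th by over 1.5 times in 19 of 25 cases, from 4 without BXD21 to 1259 without BXD89. For Fam19a4 it did so in 8 cases: the count was 429 without BXD36, 444 without BXD21, 464 without BXD16, 817 without BXD28, 850 without BXD40, 986 without BXD73, 994 without BXD87 and 2557 without BXD15. For Slc17a8 the counts ran from 0 to 11 and for Zfp521 from 1 to 31. Fam19a4 itself passed with Th in all 25 fits that left out a library (highest limma adjusted p = 0.0274). Without BXD21, BXD36 and BXD40 together, and with the mean log2 value of posterior Hox or of large-diameter neuron genes as a covariate, it did not pass over all genes (limma adjusted p up to 0.194), while r was 0.73, 0.77 and 0.73.

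Genes that work beside tyrosine hydroxylase were measured as 11 of a list of 13, which held the makers and recyclers of its cofactor tetrahydrobiopterin and the enzymes and transporters of catecholamines. Dbh and Slc6a3 were not analysed here. None of the 11 passed with Th, and their median r with Th was 0.36, against 0.00 over all genes, with 9 of 11 above 0. The mean log2 value of the list had r = 0.53 with Th (permutation p = 0.00672, adjusted over 72 such relations p = 0.0440), with rho 0.45 (adjusted p = 0.0996) and r = 0.35 without the 2 farthest strains. The closest were Pcbd1, which regenerates the cofactor (r = 0.68, limma adjusted p = 0.0589), and Maoa, which degrades monoamines (r = 0.65, limma adjusted p = 0.0652). Ddc, which converts the product of tyrosine hydroxylase to dopamine, was scarce at 21 to 88 scaled counts, highest in BXD36. Its median was 8.74 per kb beside 1744.5 for Th, and its r with Th was 0.13. The vesicular monoamine transporters were low as well, Slc18a1 at 35 to 88 and Slc18a2 at 106 to 237, with r of -0.17 and -0.32. Gch1, the first enzyme of cofactor synthesis, ran from 78 to 261 with r = 0.36.

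With Fam19a4, 4 of the 11 passed, in the same direction, where 4.24% of all genes did. They were Pcbd1 (r = 0.72, limma adjusted p = 0.00631), Maoa (0.68, 0.0112), Spr, which makes the cofactor (0.67, 0.0143), and Qdpr, which recycles it (0.54, 0.0459). Pcbd1, Maoa and Spr passed in all 25 fits that left out a library, and Qdpr in 10 of 25. None of these 4 passed without BXD21, BXD36 and BXD40. Slc18a1 had the lowest r with Fam19a4, -0.44 (limma adjusted p = 0.134).

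Among genes of the TAFA family and the neurexins, to which TAFA proteins bind, all 7 measured had r below 0 with Fam19a4. Their median r was -0.34, against -0.007 over all genes, of which 7965 of 16151 had r above 0. Fam19a2 passed in the opposite direction (r = -0.59, limma adjusted p = 0.0288), beside 5.03% of all genes, but not without BXD36, BXD21, BXD16 or BXD73 (highest limma adjusted p = 0.0934), nor without BXD21, BXD36 and BXD40 together (0.290). Fam19a2 ran from 1015 scaled counts in BXD36, the strain highest for Fam19a4, to 1861 in BXD73. Fam19a1, which lies next to Fam19a4 on chromosome 6, had r = -0.38 (limma adjusted p = 0.190). Per kb, the medians were 302 for Fam19a5, 291 for Fam19a2, 192 for Fam19a1 and 130 for Fam19a3, beside the 353.6 of Fam19a4.

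The other vesicular glutamate transporters had higher levels per kb than Slc17a8. Slc17a6 (VGLUT2) had a median of 1006 and Slc17a7 (VGLUT1) of 776, beside 92.2 for Slc17a8. Neither passed with Slc17a8, at r = 0.30 and -0.48 (limma adjusted p = 0.644 and 0.360). Slc17a7, typical of large myelinated neurons, passed in the opposite direction with Fam19a4 (r = -0.58, limma adjusted p = 0.0283), beside 5.03% of all genes. It did not pass without BXD36, BXD21, BXD16 or BXD73, nor without BXD21, BXD36 and BXD40 together (limma adjusted p = 0.241).

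Of the relatives and partners of Zfp521, none of 5 passed with it. The EBF factors Ebf3 and Ebf1, to which it binds, had r of 0.60 and 0.58 (limma adjusted p = 0.140 and 0.171), Ebf2 had 0.27 and Ebf4 -0.29. Its close relative Zfp423 had r = 0.11 and ran from 307 in BXD21, the strain lowest for Zfp521, to 746 in BXD73. With Th, Ebf1 and Ebf3 had r of 0.15 and 0.18.

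A further 9 genes known in C-LTMRs were all measured, of which Gfra2 and Ret also stand in the list of non-peptidergic nociceptor genes. With Zfp521 their r was above 0 for 9 of 9, with a median of 0.50, against -0.02 over all genes. P2ry1, an ADP receptor, passed (r = 0.88, limma adjusted p = 3.56e-05), where 0.031% of all genes did. Gfra2, the neurturin receptor (0.70, limma adjusted p = 0.0666), Cacna1i, a T-type calcium channel (0.69, 0.0666), and Runx1, a transcription factor of these lineages (0.66, 0.0862), did not. The median r was 0.42 with Slc17a8 (8 of 9 above 0), 0.46 with Fam19a4 (6 of 9) and 0.25 with Th (7 of 9). The mean log2 value of the 9 genes had r = 0.78 with Zfp521 (permutation p = 1e-05, the smallest that can be given; adjusted p = 0.00072; rho 0.80; 0.77 without the 2 farthest strains). With Slc17a8 it had r = 0.54 (permutation p = 0.00559, adjusted p = 0.0434), rho 0.51 (adjusted p = 0.0639) and r = 0.40 without the 2 farthest strains, and with Fam19a4 and Th it did not pass (r = 0.44 and 0.30).

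With Fam19a4, Gfra2 (r = 0.66, limma adjusted p = 0.0129) and the POU factor Pou4f2 (r = 0.64, limma adjusted p = 0.0180) passed, in the same direction, as 4.24% of all genes did. Both passed in all 25 fits that left out a library, but not without BXD21, BXD36 and BXD40 (limma adjusted p = 0.0734 and 0.0941), nor with the spinal cord, muscle and Schwann cell scores as covariates. None of the 9 passed with Th or Slc17a8. With Slc17a8 the highest was Runx1 at r = 0.66 (limma adjusted p = 0.210), and with Th it was Gfra2 at 0.47. Piezo2, the channel of touch, had r of -0.30 with Th, -0.16 with Fam19a4, 0.07 with Slc17a8 and 0.50 with Zfp521. Its level was 7162 to 14232 scaled counts, lowest in BXD40. Ret, the signalling partner of Gfra2, was the most abundant of the 9 per kb, with a median of 2807, and passed with none of the 4.

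**Figure D3:**
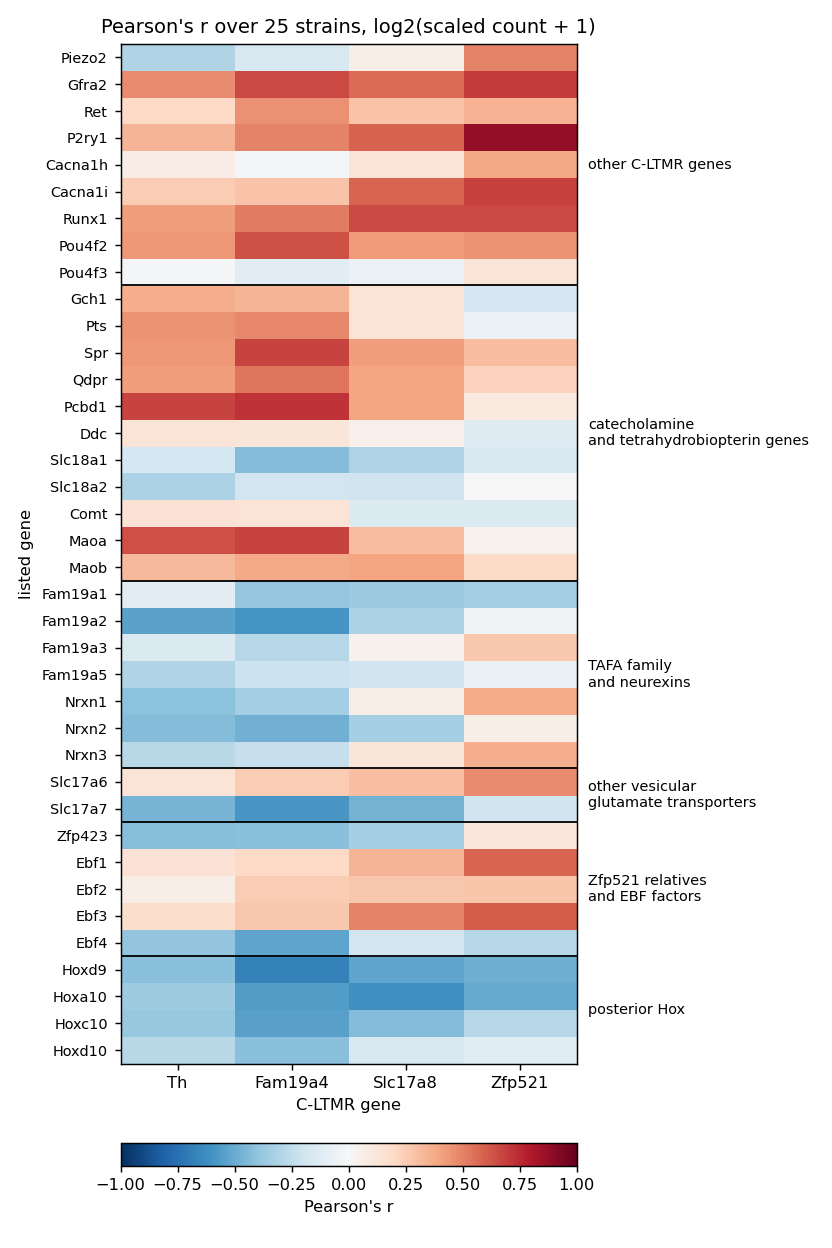
Pearson's r over 25 strains between each listed gene (rows, grouped by list) and each C-LTMR gene (columns), on a colour scale from -1 (blue) to 1 (red). The darkest cell is P2ry1 with Zfp521 (r = 0.88), and the catecholamine genes are redder in the Th and Fam19a4 columns than in that of Zfp521.

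The genes most like each C-LTMR gene were ranked by r among genes with a symbol and a mean of at least 50 scaled counts. For Zfp521 the first was P2ry1, the highest of 16151 genes. P2ry1 ran from 1623 in BXD55 through a median of 2123 to 3010 in BXD44. Its log2 value was higher by 1.13 ± 0.127 (SE, limma) for each unit of log2 Zfp521. The r of 0.88 was 0.86 in TyJ, 0.90 in RwwJ, 0.89 without BXD21, BXD36 and BXD40, and 0.88 without the 2 strains farthest from the Zfp521 median, and rho was 0.88. It passed in all 25 fits that left out a library (highest limma adjusted p = 0.000218) and in 9 of 9 other fits (highest limma adjusted p = 0.00900).

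Next for Zfp521 were Zdhhc23, a palmitoyltransferase (r = 0.79), Kcnd3, an A-type potassium channel (0.78), and Syt1, the calcium sensor of vesicle release (0.77), each at a limma adjusted p of 0.0175. All 3 failed without BXD44 or BXD55, and Zdhhc23 also without BXD9 and Syt1 without BXD89, at adjusted p up to 0.0741 by limma. With the posterior Hox score, or the spinal cord, muscle and Schwann cell scores, as covariates they did not pass either. The lowest r were those of Tarbp2 (-0.74), Pex11g (-0.72) and Gldn (-0.71), which did not pass.

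For Th the closest genes were Dapk2, a calmodulin-dependent kinase (r = 0.82), Fam19a4 (0.80), the membrane progestin receptor gene Paqr5 (0.79) and Rarres1, a retinoid-responsive gene (0.78). Each had a limma adjusted p of 0.00580 and passed in all 25 fits that left out a library, and none passed without BXD21, BXD36 and BXD40. Dapk2 ran from 401 in BXD48 to 647 in BXD21. Paqr5 (1249 to 2552) and Rarres1 (944 to 3161) were both highest in BXD36. Adam5 came next (0.77; 0.92 in TyJ and 0.32 in RwwJ, a difference that was not tested), and Gm13629 (-0.75), Lurap1 (-0.72) and Frrs1l (-0.71) were lowest. These last 4 passed (limma adjusted p of 0.0373 to 0.0396), but each lost its call in 7 to 15 of the 25 fits, and the absence of BXD16, BXD21, BXD28, BXD40, BXD48 or BXD73 ended it for all 4 (highest limma adjusted p = 0.222).

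For Fam19a4 the closest were the phosphoesterase gene Mpped2 (r = 0.84), the decarboxylase gene Gadl1 (0.83), Synpr, a synaptic vesicle protein (0.83), Fam241a (0.81) and Rgs10, a regulator of G protein signalling (0.80). The lowest were Bend7 (-0.83), Dennd1a (-0.82) and Rnf128, a ubiquitin ligase (-0.80). All 8 passed in all 25 fits that left out a library (highest limma adjusted p = 0.00782) and without BXD21, BXD36 and BXD40. Synpr ran from 9236 in BXD16, the strain lowest for Fam19a4, to 21510 in BXD21. Gadl1 ran from 173 in BXD16 to 457 in BXD13.

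For Slc17a8 none of the 5 closest genes passed. They were Fgf13 (r = 0.74, limma adjusted p = 0.0948), which modulates sodium channels, the amino acid transporter subunit Slc3a2 (0.74, 0.143), Cfap54 (0.73, 0.0855), Suds3 (0.72, 0.143) and Slc37a1 (0.70, 0.143). Lhfpl1, of the LHFPL membrane proteins, passed in the opposite direction (-0.78, limma adjusted p = 0.0321). It ran from 381 in BXD5, the strain highest for Slc17a8, to 847 in BXD42. Its call was lost in 11 of 25 fits, those without BXD89, BXD73, BXD68, BXD5, BXD11, BXD87, BXD55, BXD2, BXD36, BXD44 or BXD9 (highest limma adjusted p = 0.189). It was also lost without BXD21, BXD36 and BXD40 (0.0644). The spinal cord, muscle and Schwann cell scores, or the large-diameter score, as covariates ended the call as well (limma adjusted p up to 0.99997). Rmdn2 (-0.72) and Rnf128 (-0.70) followed, and Rnf128 was thus among the 3 lowest for both Slc17a8 and Fam19a4.

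**Figure D4:**
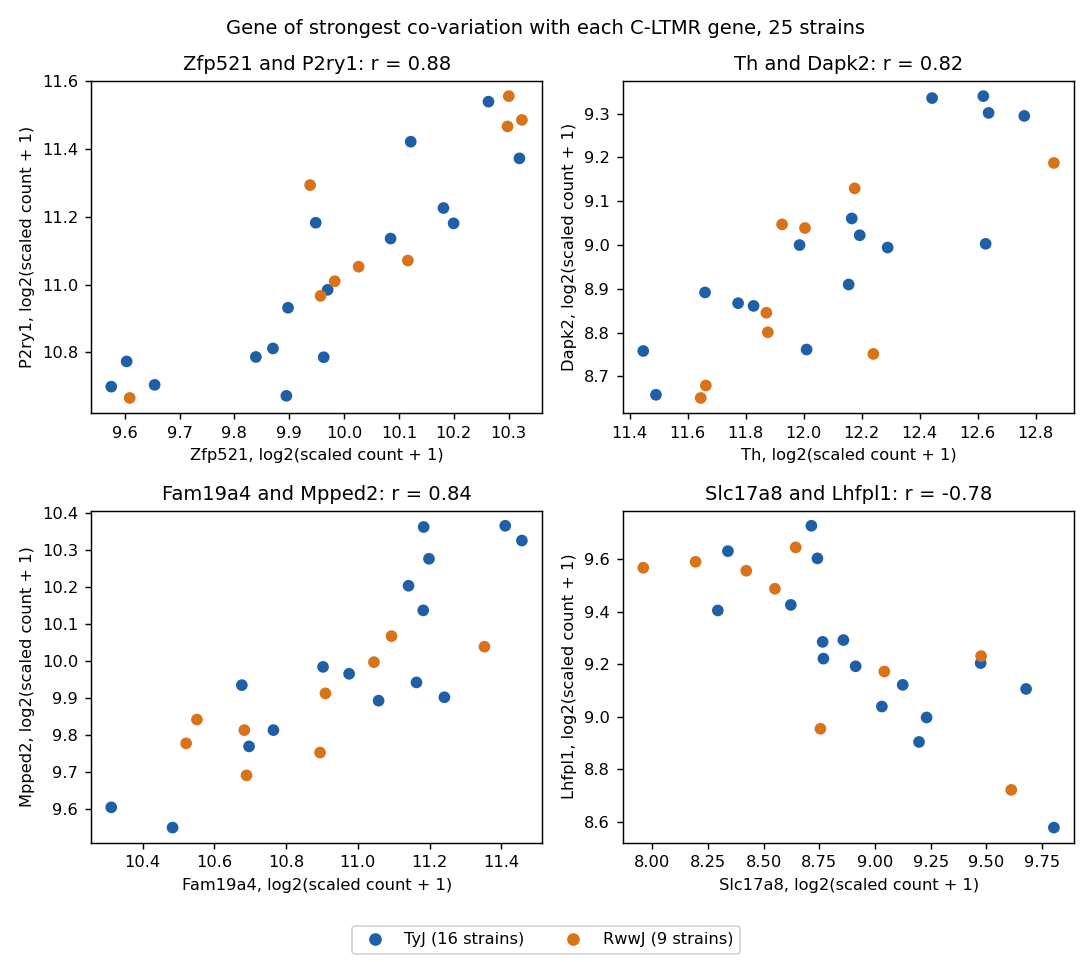
The gene with the largest absolute r for each C-LTMR gene over 25 strains, on log2(scaled count + 1) axes that do not start at 0, with TyJ in blue and RwwJ in orange. P2ry1 and Zfp521 (r = 0.88), Dapk2 and Th (0.82) and Mpped2 and Fam19a4 (0.84) rise together, and Lhfpl1 falls as Slc17a8 rises (r = -0.78).

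The 4 genes lie on 4 chromosomes, and no annotated exon of another gene overlapped theirs. None of the 2 measured genes on either side of each passed with it. Beside Th, Igf2 and Igf2os had r of -0.32 and -0.31, Tspan32 -0.06 and R74862 0.11. Beside Fam19a4, Suclg2 had 0.25, Eogt -0.10 and Tmf1 -0.03. Beside Slc17a8, the channel family gene Ano4 had -0.50 (limma adjusted p = 0.337), Gas2l3 -0.21, Scyl2 0.07 and Actr6 0.16. Beside Zfp521 the 4 neighbours Osbpl1a, Impact, Gm5160 and Ss18 ran from -0.25 to 0.23.

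Markers of other cells were set beside these results, as list scores (the mean log2 value of a list) in 72 relations with the 4 genes, adjusted together. Sympathetic neurons also use Th, and 3 of their 9 listed markers were measured: Slc6a2 at 6 to 126 scaled counts, Gata2 at 50 to 141 and Npy at 2 to 207. Their sum was 91 to 241 in TyJ and 78 to 312 in RwwJ, and none was at 0 in any library. Slc6a2, the noradrenaline transporter, had r = 0.00 with Th and Npy -0.18, and the score had -0.19 (permutation p = 0.360, adjusted p = 0.489). The highest Slc6a2 value, 126 beside a median of 23, was in BXD36, which ranked 2 for Th. Gata2 was highest in BXD15 and Npy in BXD48, which ranked 20 and 23 for Th. Other markers on that list, Dbh among them, were not analysed here. The pan-neuronal score had r of 0.26 with Th, 0.20 with Fam19a4, 0.01 with Slc17a8 and -0.02 with Zfp521, and passed with none.

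The score of large-diameter neurons (6 of 6 measured: Nefh, Nefm, Pvalb, Ntrk2, Ntrk3 and Spp1) was lower where Fam19a4 and Slc17a8 were higher. Its r was -0.62 with Fam19a4 (permutation p = 0.00094, adjusted p = 0.0262; rho -0.67, adjusted p = 0.0122), and -0.67 without the 2 farthest strains. With Slc17a8 it was -0.57 (permutation p = 0.00283, adjusted p = 0.0408; rho -0.62, adjusted p = 0.0266; -0.54 without the 2 farthest). With Th it was -0.50 (permutation p = 0.0118, adjusted p = 0.0652; rho -0.56, adjusted p = 0.0472; -0.65 without the 2 farthest) and with Zfp521 -0.31 (permutation p = 0.131, adjusted p = 0.277). The summed level was 110225 to 183186 in TyJ and 118675 to 226808 in RwwJ. Of the single genes, Nefh (r = -0.58) and Nefm (-0.54) passed with Fam19a4 (limma adjusted p = 0.0357 and 0.0483) in the opposite direction, beside 5.03% of all genes. They lost the call in 8 and 18 of 25 fits that left out a library, BXD36, BXD73 and BXD16 among them for both. Both also lost it without BXD21, BXD36 and BXD40 together. The list was mixed: Pvalb and Ntrk2 had r of 0.17 and 0.15 with Fam19a4, Pvalb had 0.27 with Th, and Ntrk2 had 0.30 with Slc17a8 and 0.48 with Zfp521.

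With the large-diameter score as a covariate, r was 0.73 for Th and Fam19a4 (permutation test, adjusted p = 0.000300), 0.39 for Fam19a4 and Slc17a8 (adjusted p = 0.110), 0.35 for Th and Slc17a8 (adjusted p = 0.134) and 0.52 for Slc17a8 and Zfp521 (adjusted p = 0.0215). P2ry1 and Zfp521 kept r = 0.88. The count of genes co-varying with Fam19a4 was then 0, and none of its 8 named genes passed (limma adjusted p from 0.0874 to 0.160).

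The posterior Hox genes, which mark ganglia of lower levels of the body axis, were measured as 4 of 7 (Hoxd9, Hoxa10, Hoxc10 and Hoxd10). Their sum was 811 to 1350 in TyJ and 801 (BXD89) to 1443 (BXD48) in RwwJ. The score, a mean of log2 values, was instead lowest in BXD2 (6.48). BXD89, highest for Th, had 6.67, and BXD11, lowest for Th, had 6.63. Within the score Hoxd10 varied most, with a log2 SD of 1.20 beside 0.22 for Hoxd9, 0.29 for Hoxa10 and 0.42 for Hoxc10. Hoxd10 ran from 2 to 223 scaled counts, highest in BXD48, the library with the most spinal cord RNA. The score had r = -0.60 with Fam19a4 (permutation p = 0.00109, adjusted p = 0.0262; rho -0.61, adjusted p = 0.0266; -0.57 without the 2 farthest strains). With Th it was -0.39, with Slc17a8 -0.38 and with Zfp521 -0.30, none past adjustment. Hoxd9 (r = -0.67), Hoxa10 (-0.56) and Hoxc10 (-0.55) passed with Fam19a4 in the opposite direction (limma adjusted p = 0.0136, 0.0378 and 0.0433), beside 5.03% of all genes. Hoxd9 passed in all 25 fits that left out a library, Hoxa10 in 17 and Hoxc10 in 11. None of the 3 passed without BXD21, BXD36 and BXD40 (limma adjusted p = 0.0553, 0.133 and 0.205), nor with the spinal cord, muscle and Schwann cell scores as covariates. With this score as a covariate r was 0.77 for Th and Fam19a4. The 4 pairs that had passed were at an adjusted p of 0.000180 to 0.0372 (permutation test), highest for Th and Slc17a8. That test did not count the covariate, so these p-values are too small and a pass of Th and Slc17a8 cannot be claimed.

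Other marker lists were mixed. The non-peptidergic score had r = 0.58 with Fam19a4 (permutation p = 0.00236, adjusted p = 0.0408; rho 0.53, adjusted p = 0.0639; 0.49 without the 2 farthest). The peptidergic score had r = 0.53 with Th and 0.53 with Fam19a4 (permutation test, adjusted p = 0.0434 for each), and 0.38 and 0.42 without the 2 farthest strains. By rho (0.45 and 0.52) neither passed (adjusted p = 0.0954 and 0.0639), and with Zfp521 the peptidergic score had r = -0.25. Lpar3 (r = 0.68, limma adjusted p = 0.00996), Calcb (0.61, 0.0227), Adcyap1 (0.57, 0.0340) and the sensory transcription factor gene Pou4f1 (0.65, 0.0180) passed with Fam19a4 in the same direction, as 4.24% of all genes did. Among the 4 satellite glia genes only Apoe did so too (0.58, 0.0340), and the median r of that list was 0.17. These calls came from lists of 5 peptidergic, 6 non-peptidergic, 8 pan-neuronal and 4 satellite glia genes. The peptidergic list was mixed, with r from -0.15 to 0.61 with Fam19a4. Lpar3 and Pou4f1 passed in all 25 fits that left out a library, Calcb in 22, and Adcyap1 and Apoe in 19, BXD36 and BXD21 ending the call for the last 3. Without BXD21, BXD36 and BXD40 together only Pou4f1 of these 5 passed. With the spinal cord, muscle and Schwann cell scores as covariates, Pou4f1, Lpar3, Adcyap1 and Apoe did not pass. None of the 5 did with the large-diameter score, and Pou4f1 also failed with the posterior Hox score (limma adjusted p up to 0.154 for Pou4f1). The pan-neuronal list, which holds Pou4f1, ran with Fam19a4 from r = -0.45 for Snap25 to 0.65, with a median of 0.10. The spinal cord score had r = 0.55 with Slc17a8 (permutation p = 0.00447, adjusted p = 0.0434), and 0.67 without the 2 farthest strains. Its rho with Slc17a8 was 0.57 (permutation test, adjusted p = 0.0444). This score had r = 0.47 with Zfp521 (permutation p = 0.0167, adjusted p = 0.0860), 0.35 with Fam19a4 and 0.15 with Th, none past adjustment. All 5 spinal cord genes had r of 0.40 to 0.51 with Zfp521. With the spinal cord, skeletal muscle and Schwann cell scores as covariates, Slc17a8 had r = 0.44 with Fam19a4, 0.45 with Th and 0.45 with Zfp521 (permutation test, adjusted p = 0.0411 for each).

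**Figure D5:**
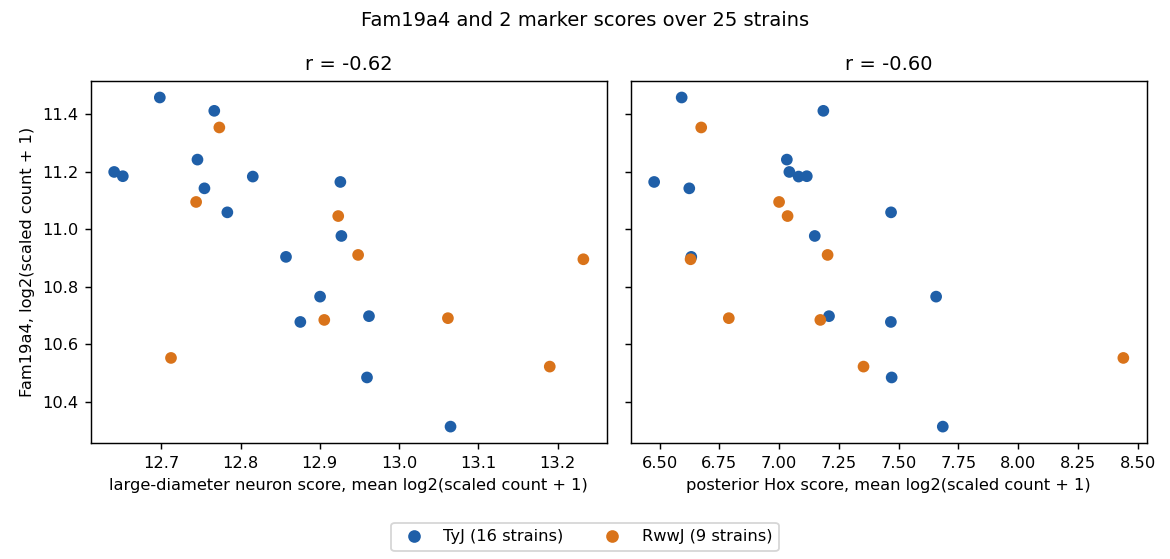
Fam19a4 (y axis) against the large-diameter neuron score (left) and the posterior Hox score (right) in 25 strains, all as log2(scaled count + 1) on axes that do not start at 0, with TyJ in blue and RwwJ in orange. Fam19a4 is lower where either score is higher (r = -0.62 and -0.60), and the strain at the far right of the Hox panel is BXD48.

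The last comparison was between the strains with the TyJ and the RwwJ ending. No C-LTMR gene passed. By limma, 0 of 16152 genes passed (0%), 2440 had an unadjusted p under 0.05 (15.1%), and the exact permutation test on ranks also called 0, with 2241 unadjusted. Th was 2791 to 6938 in TyJ (median 4577) and 3202 to 7447 in RwwJ (median 3889), a log2 difference, RwwJ minus TyJ, of -0.10 ± 0.16 (SE), which limma put at an adjusted p of 0.766 and the exact permutation test at p = 0.550. Fam19a4 was 1271 to 2811 in TyJ (median 2194.5) and 1469 to 2615 in RwwJ (median 1903), so that RwwJ minus TyJ was -0.13 ± 0.12 on the log2 scale (SE, limma, adjusted p = 0.599; exact permutation p = 0.320). The groups overlapped throughout for both genes, with BXD89 the only RwwJ strain above every TyJ strain for Th.

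Slc17a8 was 313 to 892 in TyJ (median 472) and 248 to 781 in RwwJ (median 399), and RwwJ minus TyJ was -0.23 ± 0.19 on the log2 scale (SE, limma, adjusted p = 0.541; exact permutation p = 0.252). There, 2 of the 9 RwwJ strains were below every TyJ strain. Zfp521 was 762 to 1277 in TyJ (median 992) and 780 to 1281 in RwwJ (median 1042), and RwwJ minus TyJ was 0.10 ± 0.09 on the log2 scale (SE, limma, adjusted p = 0.593; exact permutation p = 0.302). For this gene 7 of 9 RwwJ strains lay above the TyJ median, beside 3, 1 and 3 of 9 for Th, Fam19a4 and Slc17a8. Without BXD21, BXD36 and BXD40, all TyJ, the Th difference had the other sign, at 0.02.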

How the data were processed

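RNA of whole ganglia was isolated in Trizol and made into libraries with the TruSeq RNA kit v2, which does not mark strand, per the labels' protocols. The submitters' processing notes name CASAVA 1.8.0, TopHat2 2.0.9, HTSeq and the builds NCBIM37 and mm9. The values deposited are a score per gene and strain: to judge from the files, read counts that the authors scaled to a common upper quartile (1478 to 1478.25) and rounded. The scaling tool is not known here, so no count model was fitted. Low values showed a clear step in 24 of 25 libraries, which gave the depth and scaling factors of 0.622 to 1.25.

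Symbols, chromosomes, neighbours and exon lengths came from GENCODE release M21, on a later build, for 15697 of 16220 identifiers. Tests used log2(scaled count + 1), which understates folds of low genes. Of all genes, 16152 had a mean of 10 or more and were tested, and 68 were not. A limma 3.58.1 fit (R 4.3.3, prior variance with a trend) compared TyJ with RwwJ or took a C-LTMR gene as covariate, with Benjamini-Hochberg adjustment over all genes at 0.05. The group difference of each C-LTMR gene was also tested over all 2042975 splits. Correlations used 100000 permutations, or all orders where n was 9. Where scores or the group were covariates, the values left after the fit were permuted without counting those covariates. The p-values of such correlations are therefore too small. All tests were two-sided, and the scripts were tested on simulated data. Named were the 4 genes, genes of the marker and pathway lists, for each gene the 5 highest and 3 lowest by r with a mean of at least 50, and 2 neighbours on either side; some of these are not reported here. The genes and lists were chosen with earlier results of these data known. The fits with the posterior Hox or large-diameter score, and without BXD21, BXD36 and BXD40, were added after seeing the data.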

Additional observations from a re-analysis of the deposited data

Results flagged for a closer look

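Th in BXD89 stood apart from the other RwwJ strains. Its scaled count was 7447 and the next highest of the 9 strains was 4837, so the gap took up 0.615 of the group's whole range, above the 95% critical value of 0.493 for 9 values. Chance alone puts about 1 in 20 groups past that value, and 8 ends were looked at (the highest and the lowest RwwJ strain of each gene). The TyJ group, with 16 strains, was not looked at in this way. BXD89 was also highest of the RwwJ strains for Fam19a4 (2615), Slc17a8 (781) and Zfp521 (1281), with gaps of 0.375, 0.131 and 0.0419 of the range. Without BXD89 the Th difference, RwwJ minus TyJ, was -0.21, the pair of Th and Slc17a8 had r = 0.46, and the count of genes co-varying with Th was 1259.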

How the results depend on the processing

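No paired analysis was possible because the groups share no strain number and each strain has 1 library. For the settings below the cause of a change was not tested. The count of genes past limma between TyJ and RwwJ, 0, was 3 without BXD48, 1 with the pan-neuronal score as a covariate, 6 with array weights, and 0 to 3 when each library was left out. The Th difference reversed without BXD21, BXD36 and BXD40 (0.024), and when each library was left out was -0.21 to -0.05, beside -0.19 to -0.09 for Fam19a4, -0.34 to -0.14 for Slc17a8 and 0.07 to 0.16 for Zfp521. Within TyJ, 3 pairs no longer passed: Th and Slc17a8 (r = 0.43), Fam19a4 and Slc17a8 (0.47), and Slc17a8 and Zfp521 (0.54). With the large-diameter score as a covariate Th and Slc17a8 (0.35) and Fam19a4 and Slc17a8 (0.39) did not pass. With the spinal cord, muscle and Schwann cell scores the pairs of Slc17a8 were near 0.05 (permutation test, adjusted p = 0.0411). That test did not count the covariates, so a pass cannot be claimed for them. Th and Zfp521 passed without BXD21, BXD36 and BXD40 (0.48). Fam19a4 and Zfp521 passed within RwwJ (0.74) and without those 3 libraries (0.68). With the group as a covariate (0.46) their adjusted p was 0.0268, by the permutation test that did not count the covariate. Leaving out each library gave r of 0.77 to 0.84 for Th and Fam19a4, 0.46 to 0.62 for Th and Slc17a8, 0.13 to 0.38 for Th and Zfp521, 0.57 to 0.67 for Fam19a4 and Slc17a8, 0.34 to 0.58 for Fam19a4 and Zfp521, and 0.52 to 0.66 for Slc17a8 and Zfp521. The 33 genes co-varying with Th were 6 with a common total, 5 without BXD48, 3 with the spinal cord, muscle and Schwann cell scores, and 0 without the 3 libraries, with the Hox score or with the large-diameter score. The 1496 of Fam19a4 were, in the same order but leaving out BXD48, 946, 531, 41, 599 and 0. The 1 of Slc17a8 was 2 without BXD48 and 0 without the 3 libraries or with the large-diameter score. With the 3 scores the count was 1, but in the same direction as Slc17a8. The 1 gene of the main fit, Lhfpl1, went in the opposite direction and did not pass there. The 5 of Zfp521 were 15 with a common total, 13 without BXD48, 27 with the pan-neuronal score, 1 with the 3 scores, 169 without the 3 libraries, 1 with the Hox score and 196 with the large-diameter score. Leaving out each library gave 4 to 1259, 429 to 2557, 0 to 11 and 1 to 31 genes. The Zfp521 range was 2.37-fold when divided by the mean of the pan-neuronal genes. The calls of single named genes held in 833 and were lost in 142 fits that left out a library, and held in 231 and were lost in 120 others. Read counting made up at most 4.05% of the variance of a C-LTMR gene, and strains have no replicate library.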
